A study of Mus musculus with 12 samples.

Results

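The sirtuins, Sirt1 to Sirt7, were followed in the ventral tegmental area (VTA) of mice at 2, 10 and 18 months of age. They were chosen by name, as every probe set of the array that its annotation listed with 1 of the 7 symbols and no other gene. This gave 9 probe sets of 7 genes, of 34945 probe sets of 18193 genes that were listed with a single gene. Sirt5 had 3 probe sets and each of the 6 other genes had 1. A probe set is a group of short probes against 1 transcript whose signals are summarised into 1 value. Of these genes, only Sirt4 was called by the test used. It was 1.39-fold higher at 18 than at 2 months, and the level at 10 months lay in between. That call lay close to the threshold and was lost under several other settings and without some single arrays. A technical measure of the arrays also separated the 2 months samples from all later ones. Sirt1 had a larger difference than Sirt4, 1.49-fold, that missed the threshold after adjustment. Sirt2, Sirt3, Sirt5, Sirt6 and Sirt7 were not called in any comparison of ages.

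The mice were wild type animals (strain C57 in the labels, C57BL/6 in the methods of the study), no treatment is labelled, and age was the only difference between the groups given in the labels: 2 months (young), 10 months (middle-aged) and 18 months (late middle-aged). Each age had 4 arrays, and each array held RNA from the dissected VTA of 5 pooled mice, so the spread between arrays is that between pools and not between single mice. The whole region was dissected, with neurons and glia together, and at no probe set can a change in the number of cells of a type be told apart from a change in the RNA per cell. Values are log2 expression after RMA (robust multi-array average, which corrects the background, normalises the arrays to each other and summarises the probes). A difference of 1 is therefore a doubling. Levels of different genes were not compared with each other. Levels of probe sets were used only to pick the brightest of a gene and to mark or leave out dim ones.

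Sirtuins are a family of enzymes that remove acetyl and other acyl groups from proteins and consume NAD, a cofactor of energy metabolism, at every turn of the reaction. Sirt1, Sirt6 and Sirt7 are mainly nuclear, Sirt2 is mainly cytosolic, and Sirt3, Sirt4 and Sirt5 are mitochondrial. Because their activity depends on NAD, they link the metabolic state of a cell to chromatin, stress responses and mitochondrial enzymes, and they are widely studied in ageing.

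The start sites of the called gene, Sirt4, and of the gene nearest to the threshold, Sirt1, are shown to set their sequences side by side. Each window runs from 250 bases before to 50 bases after the annotated start, on the strand of the gene (RefSeq, build GRCm38.p6). Sirt1 lies at chr10:63338986-63339285 and Sirt4 at chr5:115484248-115484547, both on the minus strand. The capitals mark the E-box, CACGTG, the sequence bound by the circadian factor BMAL1 (gene Arntl) with CLOCK and by MYC.
Sirt1 window: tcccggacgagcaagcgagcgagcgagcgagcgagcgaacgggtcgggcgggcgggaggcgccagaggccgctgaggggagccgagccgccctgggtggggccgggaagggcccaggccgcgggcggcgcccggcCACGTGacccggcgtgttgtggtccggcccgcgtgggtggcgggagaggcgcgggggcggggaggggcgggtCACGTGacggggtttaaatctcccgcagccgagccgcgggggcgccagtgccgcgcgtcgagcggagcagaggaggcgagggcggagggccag
Sirt4 window: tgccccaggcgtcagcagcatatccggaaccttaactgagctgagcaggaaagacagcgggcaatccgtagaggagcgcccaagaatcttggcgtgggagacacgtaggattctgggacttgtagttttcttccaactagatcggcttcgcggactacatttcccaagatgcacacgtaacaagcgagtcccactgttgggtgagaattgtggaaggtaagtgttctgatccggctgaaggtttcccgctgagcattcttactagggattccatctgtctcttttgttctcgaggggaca
The Sirt1 window held 2 E-boxes and 79% G or C, and the Sirt4 window held no E-box and 52% G or C. The table held 9 windows for the 7 genes. The motifs named here were looked for on both strands in all of them, and none of these contains another. The E-box was present in Sirt1 only among the sirtuins, against 7.15% of the 32851 windows of all genes. The GC box, GGGCGG, was present in 6 of the 9 sirtuin windows, 7 times in that of Sirt1 and not in that of Sirt4, against 35.7% of all windows. The forkhead motif GTAAACA and the cyclic AMP response element TGACGTCA were found in 0 sirtuin windows, against 3.65% and 1.79% of all windows. These are matches of letters and not measured sites.

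Some features of the arrays touch every sirtuin value. Young arrays 3 and 4 were nearly identical, with 1 probe set more than 1 apart on the log2 scale, where the 17 remaining pairs within an age had 85 to 4905. Because this count was lower than in every other pair, they were averaged into 1 sample, and n was 3 at 2 months and 4 at each later age. The sirtuin most apart between them was Sirt1, by 0.36. In the 17 remaining pairs the largest sirtuin difference was 0.20 to 1.15, so for the sirtuins this pair was not unusually close. The score of the first principal component (44.2% of the variance over all probe sets) was positive on 4 arrays and negative on all others. These were array 2 at 2 months, array 3 at 10 months, and arrays 2 and 4 at 18 months. The log2 signal at the 3′ end of control transcripts (Actb and Gapdh) minus that at their 5′ end was 3.29 to 3.63 at 2 months, 1.69 to 2.44 at 10 months and 1.64 to 2.17 at 18 months. The young samples did not overlap with later ones, and the reason for this was not tested. All 10 dopaminergic marker genes of the VTA lay above the lower quartile of all values. Of 5 choroid plexus markers 2 lay below it and the others above it. Of these 5, 1 was called higher at 18 than at 2 months, against 8.82% of all genes. Dimmer probe sets of Ttr differed by −2.15 (groups not overlapping), −1.08 and −0.20, none called, and a dimmer one of Clic6 was called higher (0.53). Of the dopaminergic markers, 2 were called higher at 18 than at 2 months (Th by 0.84 and Calb1 by 0.70) and 2 lower (Foxa2 by −0.61 and En1 by −0.54), against 8.82% of all genes called. Dimmer probe sets of Nr4a2 were called lower (−0.74 and −1.06), and a dimmer one of Calb1 was called higher (0.65). The mean log2 level of 10 microglial markers was 8.53 to 8.87, 8.89 to 9.37 and 8.999 to 9.47 at 2, 10 and 18 months, that of 8 neuronal markers 11.82 to 12.2, 11.98 to 12.6 and 12.4 to 12.53, and that of 8 astrocyte markers 11.46 to 11.57, 11.54 to 11.75 and 11.67 to 11.91. Microglial, neuronal and astrocyte lists did not overlap between 2 and 18 months, beside 23.6% of all single probe sets. Those of dopaminergic neurons, mature oligodendrocytes, choroid plexus and vessels overlapped. Of the 8 neuronal markers 3 were called higher and 1 lower at 18 than at 2 months, against 8.82% of all genes called. Dimmer probe sets of Snap25 (−0.96) and Syt1 (−0.99) were called lower. Of the 10 microglial markers 3 were called higher and 0 lower, and a dimmer Csf1r probe set was called higher (0.69). Of the 8 astrocyte markers 0 were called. The part of these cell types in any sirtuin result was not tested.

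Comparing 18 and 2 months old mice, 1 of 9 sirtuin probe sets was called (adjusted p under 0.05 and a change over 1.3-fold, limma with Benjamini-Hochberg adjustment over all probe sets), against 7.46% of all 45037 probe sets. In the direction of that call, higher at 18 months, 4.55% of all probe sets were called. The groups did not overlap in 4 of the 9, namely those of Sirt1, Sirt3, Sirt4 and the dimmest of Sirt5, against 23.6% of all probe sets. Comparing 10 and 2 months, 0 of 9 were called and 1 had an unadjusted p under 0.05, against 1.36% called and 15.6% with such an unadjusted p over all probe sets. The groups of 1 probe set, Sirt4, did not overlap, against 12.6% of all. Comparing 18 and 10 months, 0 of 9 were called and 1 had an unadjusted p under 0.05, that of Sirt1, against 0.00222% called and 5.06% with such an unadjusted p over all probe sets. Here the groups of Sirt3 did not overlap, against 2.73% of all. With the brightest probe set of each gene, the median log2 change of the 7 sirtuins was 0.26 at 18 against 2 months, 0.20 at 10 against 2 months and −0.08 at 18 against 10 months, beside −0.02, 0.02 and −0.04 over all genes. The first and second of these comparisons share the young samples.

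**Figure D1:**
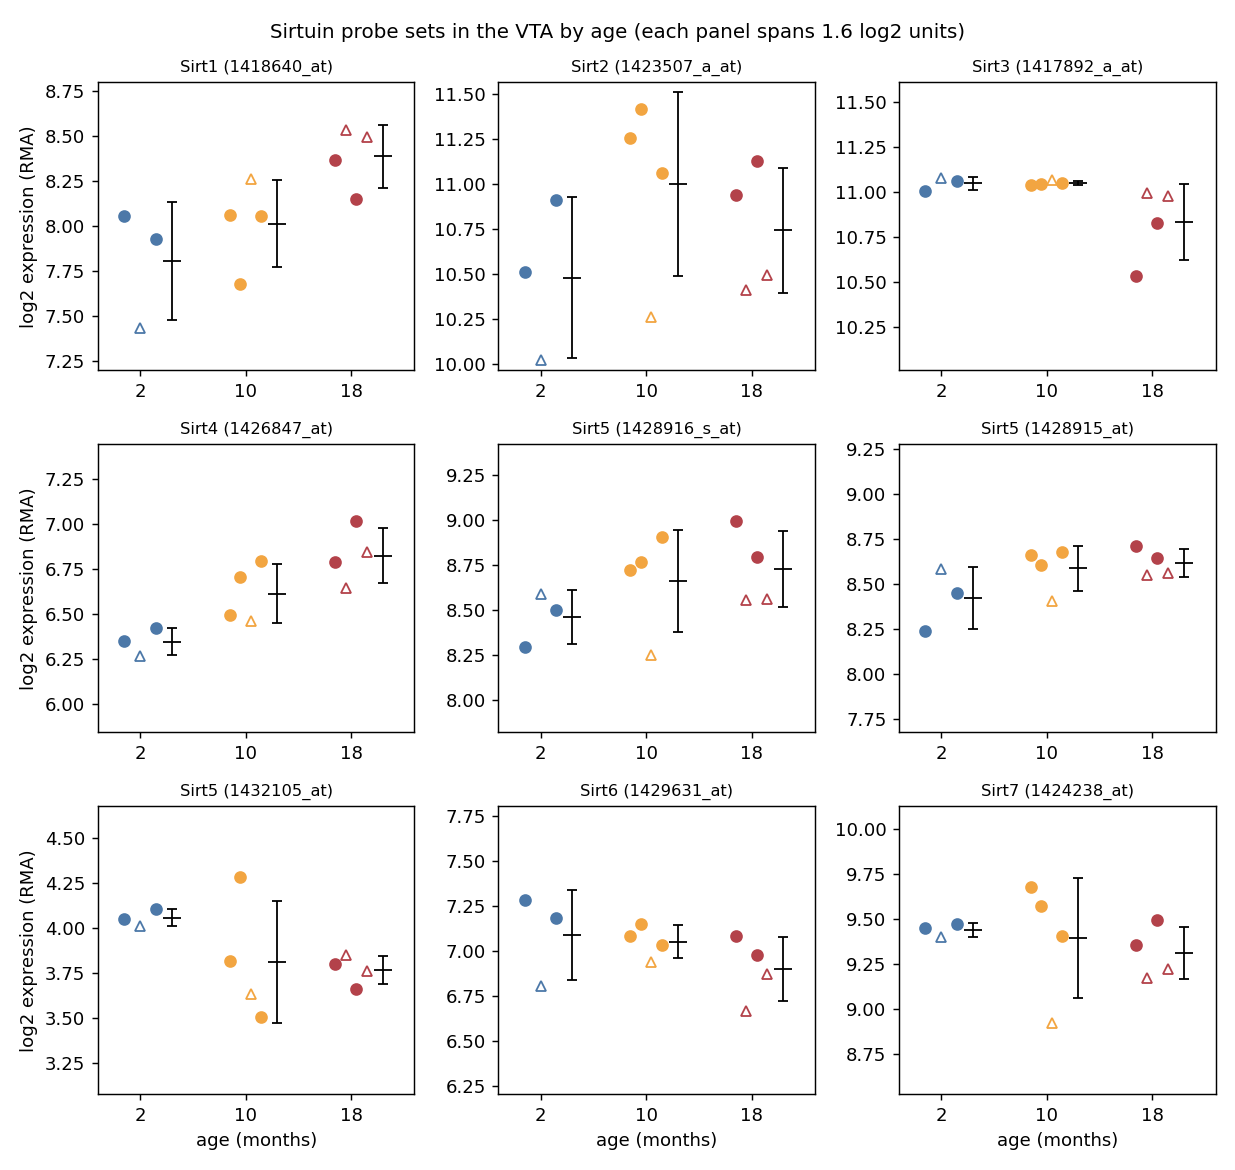
Log2 expression (RMA) of each of the 9 sirtuin probe sets, in 1 panel each, against age in months. Points are samples, with young arrays 3 and 4 averaged, open triangles are the 4 arrays with a positive score on the first principal component, and bars are the mean and SD per age. Sirt4 stood at 6.27 to 6.42 at 2 months and at 6.65 to 7.02 at 18 months, while in the Sirt2 panel the triangles are the lowest points at every age.

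Sirt4 is the mitochondrial sirtuin known for restraining glutamate dehydrogenase and fatty acid oxidation. Its probe set (1426847_at) stood at 6.35 and 6.27 on young arrays 1 and 2 and at 6.42 on the mean of arrays 3 and 4. At 10 months the 4 arrays gave 6.497, 6.70, 6.46 and 6.80, and at 18 months 6.79, 6.65, 7.02 and 6.84. Every sample of either later age was above every young one, and the values of 10 and 18 months overlapped. The mean was 6.35 ± 0.076 at 2 months (SD, n = 3), 6.61 ± 0.16 at 10 months (SD, n = 4) and 6.83 ± 0.15 at 18 months (SD, n = 4). Sirt4 rose by 0.48 ± 0.12 (SE) from 2 to 18 months, a 1.39-fold change with a 95% interval of 0.21 to 0.74 on the log2 scale (limma adjusted p = 0.0359).

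Neither of the shorter intervals was called alone for Sirt4. The log2 difference was 0.27 ± 0.12 (SE) at 10 against 2 months (limma adjusted p = 0.314) and 0.21 ± 0.11 at 18 against 10 months (limma adjusted p = 0.847). The difference between the intervals was 0.06 ± 0.20 (limma adjusted p = 0.979). The call at 18 months lay close to the threshold. It was lost without young array 1 (adjusted p = 0.14), young array 2 (0.11), 10 months array 1 (0.0506) or 18 months array 1 (0.0658), 3 (0.0851) or 4 (0.0766), with the replicate number as a block (0.0513), with an intensity trend (0.0539) and with the 3′ to 5′ difference as a covariate (0.58 ± 0.35, adjusted p = 1), while the difference stayed between 0.41 and 0.58 in all of these.

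Sirt1, the nuclear deacetylase whose known targets include p53, FOXO factors and PGC-1α, showed the largest difference of the family between 18 and 2 months. Its probe set (1418640_at) stood at 8.06 and 7.44 on young arrays 1 and 2 and at 7.93 on the mean of arrays 3 and 4, which alone gave 8.11 and 7.75. The 10 months arrays gave 8.06, 7.68, 8.26 and 8.05, and the 18 months arrays 8.37, 8.53, 8.15 and 8.497. Every 18 months array was above every young sample, young array 2 was the lowest of all, and the 10 months values overlapped with both other ages. The means were 7.81 ± 0.33 (SD, n = 3), 8.01 ± 0.24 (SD, n = 4) and 8.39 ± 0.17 (SD, n = 4).

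The log2 difference of Sirt1 between 18 and 2 months was 0.58 ± 0.18 (SE), with a 95% interval of 0.20 to 0.96, and it was not called (limma adjusted p = 0.0671). At 18 against 10 months it was 0.37 ± 0.16 (limma adjusted p = 0.847), and at 10 against 2 months 0.21 ± 0.18 (limma adjusted p = 0.654). Leaving out single arrays moved Sirt1 across the threshold: it was called without young array 3 (0.64, adjusted p = 0.045), without 10 months array 2 (adjusted p = 0.0472) and without 10 months array 3 (adjusted p = 0.043), and its difference dropped to 0.39 (adjusted p = 0.219) without young array 2. Sirt1 was also called with the first component as a covariate (0.52, limma adjusted p = 0.0344), an alternative chosen after the data were seen. That covariate called 8712 of all 45037 probe sets, against 3359 without it. The plot of both genes under each processing shows Sirt4 and Sirt1 above 0 throughout, on one side of the threshold or the other.

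**Figure D2:**
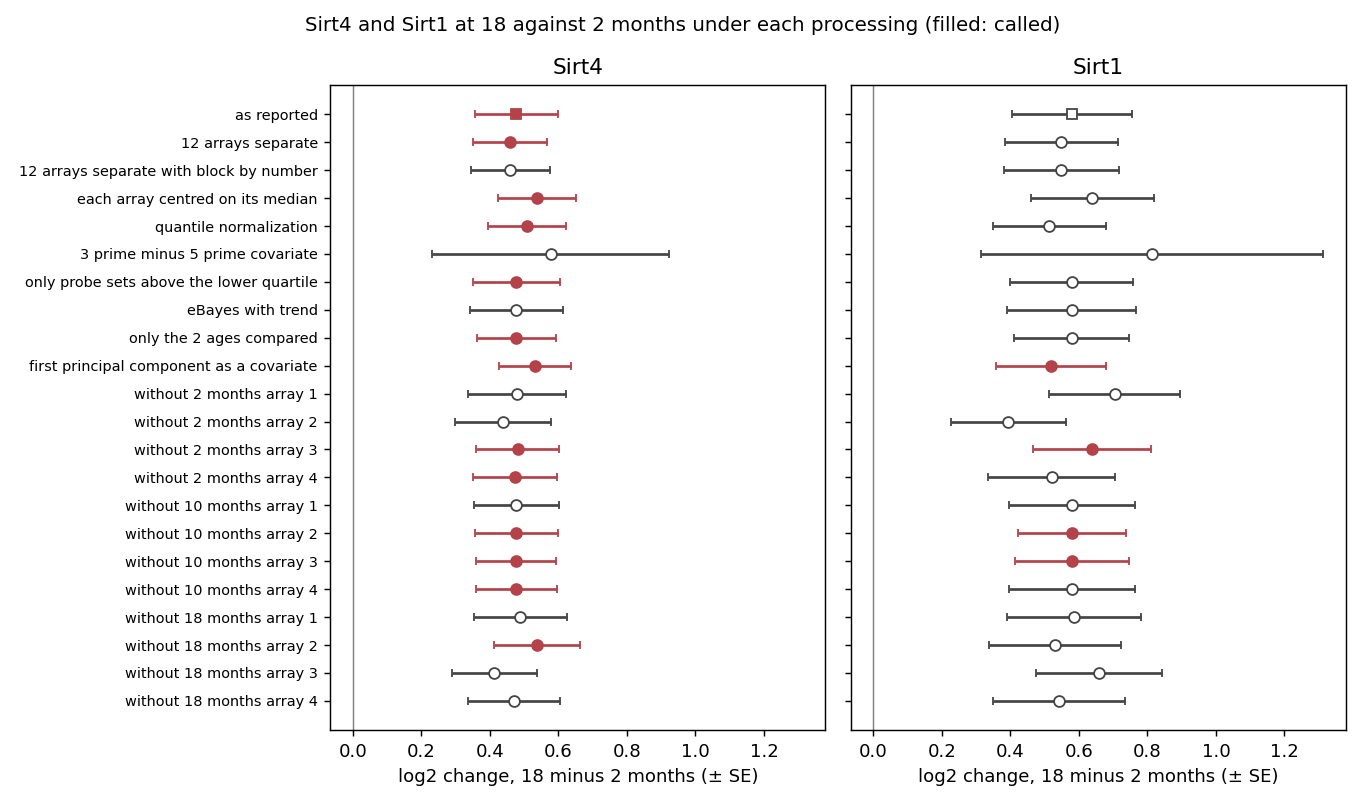
Log2 change at 18 minus 2 months of Sirt4 (left) and Sirt1 (right), with its standard error as the bar, as reported (square) and under each alternative processing or with 1 array left out (circles). Filled marks are called at an adjusted p under 0.05 and over 1.3-fold. Every estimate is above 0, from 0.41 to 0.58 for Sirt4 and from 0.39 to 0.81 for Sirt1, and both genes are called under some settings and not under others.

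Sirt3 is the main mitochondrial deacetylase, acting on enzymes such as superoxide dismutase 2 and isocitrate dehydrogenase 2. Its probe set (1417892_a_at) was nearly constant at the earlier ages, with 11.01, 11.08 and 11.06 at 2 months and 11.04, 11.04, 11.07 and 11.05 at 10 months. At 18 months the arrays gave 10.54, 10.998, 10.83 and 10.98. All 4 of these lay below every earlier sample, 2 of them by a small margin, and the range widened from 0.073 at 2 months and 0.025 at 10 months to 0.463. The log2 difference was −0.21 ± 0.12 (SE) against 2 months (95% interval −0.47 to 0.04, limma adjusted p = 0.295) and −0.22 ± 0.11 against 10 months (limma adjusted p = 0.847), so neither was called. Between 10 and 2 months it was 0.0016 ± 0.12 (limma adjusted p = 0.997).

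Sirt5, the mitochondrial enzyme that removes succinyl, malonyl and glutaryl groups, had 3 probe sets with differences of both signs. The brightest (1428916_s_at) gave 8.29, 8.59 and 8.497 at 2 months, 8.72, 8.77, 8.25 and 8.90 at 10 months and 8.99, 8.55, 8.80 and 8.56 at 18 months. These groups overlapped, and the log2 difference between 18 and 2 months was 0.26 ± 0.17 (95% interval −0.10 to 0.63, limma adjusted p = 0.375). The second (1428915_at) ran from 8.24 to 8.58, from 8.40 to 8.68 and from 8.55 to 8.71 at the 3 ages, with a difference of 0.19 ± 0.11 (limma adjusted p = 0.336). The third (1432105_at) stood at 4.05, 4.01 and 4.11 at 2 months, 3.82, 4.28, 3.63 and 3.51 at 10 months and 3.80, 3.85, 3.66 and 3.76 at 18 months. It was below the lower quartile of all values (4.56) on every sample, where a difference has little signal behind it. Its difference of −0.29 ± 0.16 (limma adjusted p = 0.30) was opposite in sign to those of the brighter probe sets and was not called, although its 18 and 2 months groups did not overlap.

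Sirt2, the cytosolic tubulin deacetylase that is abundant in myelinating oligodendrocytes, was the most variable member within an age. Its probe set (1423507_a_at) gave 10.51, 10.02 and 10.91 at 2 months, 11.26, 11.42, 10.26 and 11.06 at 10 months, and 10.94, 10.41, 11.13 and 10.495 at 18 months. The ranges of all ages overlapped widely, and the means were 10.48 ± 0.45 (SD, n = 3), 10.999 ± 0.51 (SD, n = 4) and 10.74 ± 0.35 (SD, n = 4). The log2 difference was 0.52 ± 0.29 (SE) at 10 against 2 months (95% interval −0.12 to 1.15, limma adjusted p = 0.436) and 0.26 ± 0.29 at 18 against 2 months (−0.37 to 0.90, limma adjusted p = 0.641). At 18 against 10 months it was −0.26 ± 0.27 (limma adjusted p = 0.858). Without young array 2, the lowest for Sirt2, the difference between 18 and 2 months was 0.03.

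At each age the arrays with a positive score on the first component were the lowest for Sirt2, with means of 10.02 against 10.71 on the others at 2 months, 10.26 against 11.24 at 10 months and 10.45 against 11.03 at 18 months. When that score, calculated from all probe sets including the sirtuins, was taken as a covariate (an alternative chosen after the data were seen), Sirt2 was 0.49 ± 0.13 higher at 10 than at 2 months (limma adjusted p = 0.0271) and 0.50 ± 0.14 higher at 18 than at 2 months (limma adjusted p = 0.0186), and both were called. The difference between 18 and 10 months then went from −0.26 to 0.01. The same covariate called 8712 of all 45037 probe sets at 18 against 2 months, against 3359 without it. The mean level of the 9 measured markers of mature oligodendrocytes was 11.81 to 11.89 at 2 months, 11.90 to 12.02 at 10 months and 11.87 to 11.99 at 18 months, and 2 of the 9 were called higher at 18 than at 2 months, Ermn (0.84, limma adjusted p = 0.00664) and Aspa (0.44, limma adjusted p = 0.0475). The other 7 ran from −0.43 (Opalin) to 0.41 (Mobp), with Mbp (myelin basic protein) at 0.03, while a dimmer probe set of Cnp was called higher (0.73). Over all genes, 8.82% were called in this comparison. The part of the oligodendrocyte markers in the Sirt2 values was not tested.

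Sirt6 and Sirt7 are the other nuclear members, the one known for telomere maintenance and DNA repair and the other for its place in the nucleolus. Sirt6 (1429631_at) gave 7.28, 6.80 and 7.18 at 2 months, 7.09, 7.15, 6.94 and 7.04 at 10 months and 7.08, 6.67, 6.98 and 6.87 at 18 months. Sirt7 (1424238_at) gave 9.45, 9.40 and 9.47 at 2 months, 9.68, 9.57, 8.92 and 9.41 at 10 months and 9.35, 9.17, 9.495 and 9.22 at 18 months. All ages overlapped for both genes. The log2 difference between 18 and 2 months was −0.19 ± 0.14 (SE) for Sirt6 (95% interval −0.49 to 0.11, limma adjusted p = 0.443) and −0.13 ± 0.16 for Sirt7 (−0.49 to 0.23, limma adjusted p = 0.688).

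The first component also ordered the samples of these genes within an age. The arrays with a positive score were the lowest for Sirt6 at every age (6.80 against a mean of 7.23 at 2 months, 6.94 against 7.09 at 10 months and a mean of 6.77 against 7.03 at 18 months). They were the lowest for Sirt7 too, with 9.40 against 9.46, 8.92 against 9.55 and 9.20 against 9.43. For Sirt3 they were the highest at every age, with 10.99 against 10.68 at 18 months. Sirt1, Sirt4 and the brightest Sirt5 probe set had no such order at all ages. The component was calculated from all probe sets, these included, and held 44.2% of their variance. How many of all probe sets had such an order was not counted. It is therefore not shown to be particular to Sirt2, Sirt3, Sirt6 or Sirt7.

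**Figure D3:**
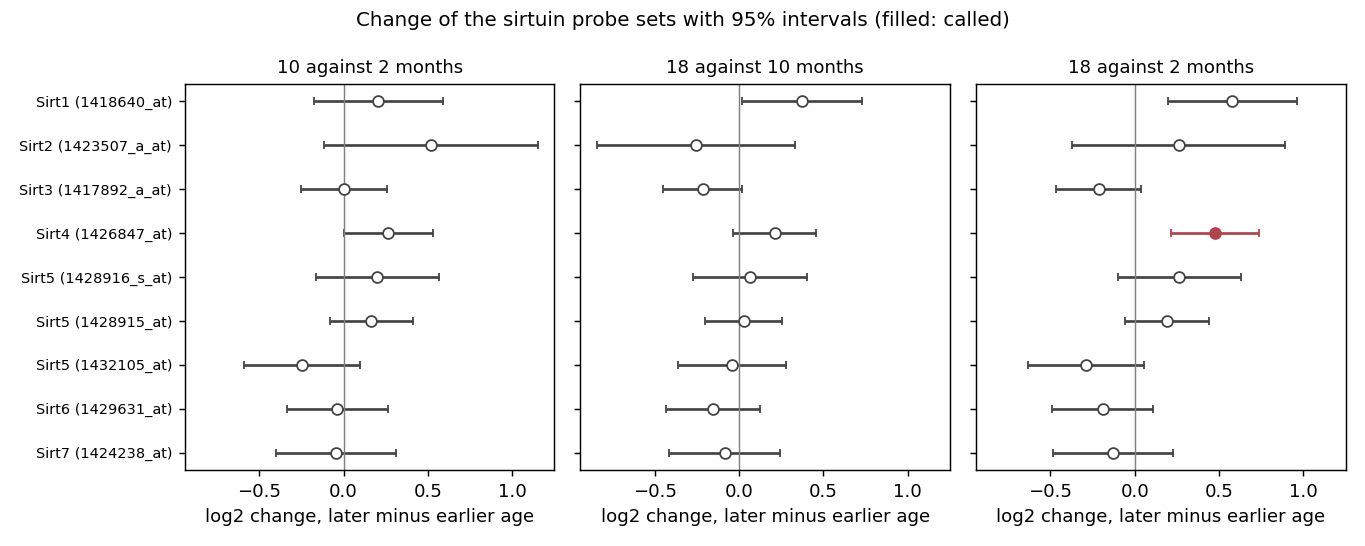
Log2 change of each sirtuin probe set between ages (later minus earlier), with the 95% interval from limma as the bar, for 10 against 2 months, 18 against 10 months and 18 against 2 months. Filled points are called. Sirt4 at 18 against 2 months, 0.48 with an interval of 0.21 to 0.74, is the filled point, and the interval of Sirt1 in that comparison, 0.20 to 0.96, also lies above 0.

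Whether the sirtuins changed unequally in the intervals was asked with a contrast of the change from 2 to 10 months minus that from 10 to 18 months. Of the 9 probe sets 0 had an adjusted p under 0.05 and 0 an unadjusted p under 0.05, and over all probe sets the called share was 0% (2463 had an unadjusted p under 0.05, limma). The largest value was that of Sirt2, 0.77 ± 0.48 (SE, limma adjusted p = 0.902). For Sirt1 it was −0.17 ± 0.29 and for Sirt3 0.22 ± 0.19.

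The other genes of sirtuin biology were taken as 5 lists with 82 genes, of which 77 had a probe set with a single gene in the annotation used. Each gene was read at its brightest probe set. Comparing 18 and 2 months old mice, 10 of 77 were called, 5 higher and 5 lower, which is 13.0% against 8.82% of all genes. Their median log2 change was 0.14, beside −0.02 over all genes. Comparing 10 and 2 months, 2 were called, Arntl and Pnp, against 1.48% of all genes. Comparing 18 and 10 months, 0 were called and 6 had an unadjusted p under 0.05 (limma). Of all 18193 genes, 0 were called and 1041 had such an unadjusted p.

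No gene of NAD synthesis passed the test. Of the 15 genes of this list 0 were called at 18 against 2 months and 5 had an unadjusted p under 0.05 (limma), with a median change of 0.09. Over all 18193 genes, 8.82% were called and 4711 had such an unadjusted p. Nampt, the rate-limiting enzyme of NAD salvage, differed by 0.32 ± 0.15 (limma adjusted p = 0.232), and its other probe sets by 0.63 and 1.44, neither called. Nmnat2, the NAD synthase of axons, differed by 0.36 ± 0.15 (limma adjusted p = 0.188). Among 11 genes of other NAD use and NAD(H) handling, 3 were called (27.3%, against 8.82% of all genes). Nnmt, which methylates nicotinamide, fell by 0.80 ± 0.20 (limma adjusted p = 0.0349), and Pnp, the purine nucleoside phosphorylase, rose by 0.57 ± 0.14 (limma adjusted p = 0.0358). Parp1, the DNA damage sensor that competes with sirtuins for NAD, fell by 0.77 ± 0.14 at its brightest probe set (limma adjusted p = 0.0106), but another 2 of its probe sets were called higher (1.12 and 0.59), so no direction holds for the gene. Dimmer probe sets of Nnt, the mitochondrial transhydrogenase between NADH and NADPH (1.29, limma adjusted p = 0.00236), and of Nadk2, the mitochondrial NAD kinase (0.74, limma adjusted p = 0.039), were called higher, where the brightest ones were not (−0.10 and 0.99). Sarm1, the NAD hydrolase of axon degeneration, differed by −0.04 ± 0.17 (limma adjusted p = 0.913).

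Of 22 regulators and protein partners of sirtuins, 4 were called at 18 against 2 months (18.2%, against 8.82% of all genes). Arntl, whose product BMAL1 drives the circadian clock with CLOCK, rose by 1.05 ± 0.14 (limma adjusted p = 0.00454). It stood at 7.05, 6.73 and 7.26 at 2 months, 7.95, 7.82, 7.79 and 7.99 at 10 months and 8.07, 7.81, 8.26 and 8.14 at 18 months. All later arrays were above all young samples, and it was called at 10 against 2 months as well (0.87 ± 0.14, limma adjusted p = 0.0307). A second, dimmer Arntl probe set differed by 0.09 and was not called. The forkhead factors, deacetylation targets of Sirt1 and Sirt2, were lower: Foxo4 fell by 0.67 ± 0.13 (limma adjusted p = 0.0137), Foxo3 by 0.75 ± 0.21 (limma adjusted p = 0.0467) and Foxo1 by 0.47 ± 0.13 (limma adjusted p = 0.0444). None of their 6 other probe sets was called, with differences from −0.22 to 0.23, and with each array centred on its median Foxo1 and Foxo3 were not called either (−0.41 and −0.69, adjusted p = 0.0681 and 0.066). Ppargc1a, the coactivator of mitochondrial biogenesis, differed by −0.48 ± 0.21 (limma adjusted p = 0.188), and Ccar2, the inhibitor of SIRT1, by 0.34 ± 0.31 (limma adjusted p = 0.564).

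Of 18 mitochondrial substrates of sirtuins, 3 were called at 18 against 2 months at the brightest probe set (16.7%, against 8.82% of all genes). Each of them was higher, and the median change of the list was 0.27. Dimmer probe sets of another 3 genes of the list were called lower, for Idh2 (−0.83, limma adjusted p = 0.0076), Acss1 (−0.64, limma adjusted p = 0.0265) and Ppif (−0.53, limma adjusted p = 0.0263), whose brightest probe sets differed by 0.30, −0.25 and 0.23. Acadm, the medium-chain acyl-CoA dehydrogenase of fatty acid oxidation, rose by 0.58 ± 0.12 (limma adjusted p = 0.0181). Pdha1, a subunit of pyruvate dehydrogenase, rose by 0.57 ± 0.15 (limma adjusted p = 0.042), and Ogdh, of the citric acid cycle, by 0.65 ± 0.16 (limma adjusted p = 0.0341). Pnp and Pdha1 were no longer called with quantile normalization (0.48 and 0.45, adjusted p = 0.104 and 0.0565) or with the replicate number as a block (adjusted p = 0.0832 and 0.0572). With an intensity trend Pnp (adjusted p = 0.054), Foxo1 (0.0785) and Foxo3 (0.0552) were not called. The second probe sets of Pdha1 (0.41) and Ogdh (−0.22) were not called. Sod2, the superoxide dismutase of mitochondria, differed by −0.27 ± 0.12 (limma adjusted p = 0.209). Of the 11 classical histone deacetylases, which need zinc and not NAD, 0 were called and 4 had an unadjusted p under 0.05 (limma). Over all 18193 genes, 4711 had such an unadjusted p. Hdac2 differed by 0.21 ± 0.17 (limma adjusted p = 0.489). With the 3′ to 5′ difference as a covariate 0 of the 77 genes were called (limma, 2 with an unadjusted p under 0.05). Of all 45037 probe sets 0 were called too (1748 with such an unadjusted p). The signs of Nnmt, Foxo1, Foxo3, Ogdh and Hdac2 turned. Leaving out young array 1 brought the count of called genes from 10 to 1, and leaving out young array 2 brought it to 3. It was 5 when 10 months array 1 or 18 months array 2 was dropped, and 4 when 10 months array 4 or 18 months array 3 or 4 was dropped. Over all probe sets the called count fell as well, from 3359 to 423 without young array 1 and to 1668 without young array 2. It was 1937 to 2539 without any of the later arrays just named.

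**Figure D4:**
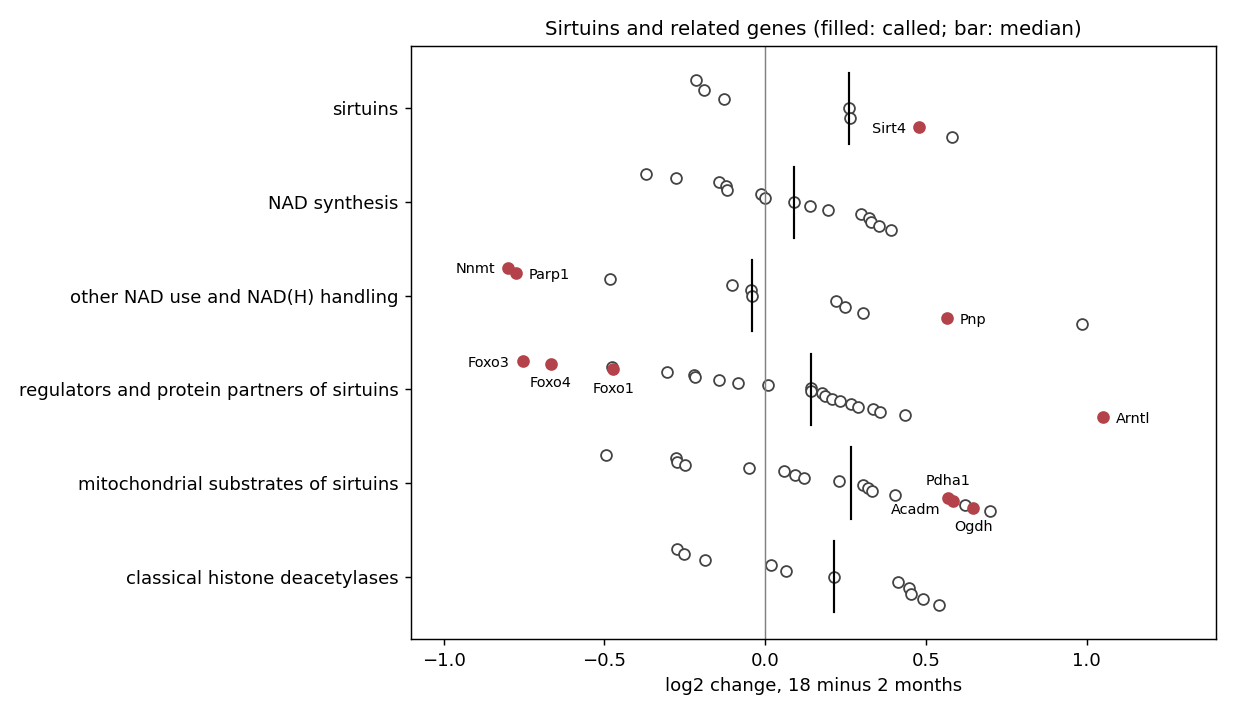
Log2 change at 18 minus 2 months of the 7 sirtuins and of the 77 measured genes of 5 related lists, each at its brightest probe set. Filled points are called, vertical bars are the medians of the lists, and the vertical spread is only to separate the points. The called genes lie on both sides of 0, from Nnmt at −0.80 to Arntl at 1.05, and Parp1, shown at its brightest probe set, had 2 other probe sets called in the opposite direction.

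The genes whose levels moved most like each sirtuin over the 11 samples were listed by Pearson correlation among 15546 genes, as a description with no test. The samples share the first component, so these values hold it too. For Sirt4 they were Hhatl (0.944) and Oasl2 (0.924), and for Sirt1 Bmi1 (0.974) and Ugp2 (0.967). For Sirt3 they were Axin1 (0.942) and Gmppb (0.936), and for Sirt5 Tinf2 (0.975) and Cd302 (0.959). Sirt2 was followed most closely by Ftsj1 and Mrpl42 (both 0.982), Sirt6 by Ppp1r14a (0.947) and Ccdc116 (0.940), and Sirt7 by Dnajc5g (0.964) and Cc2d1a (0.953).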

How the data were processed

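The deposited values are log2 expression per probe set, which the authors made from the array images with RMA in Babelomics, and the submitters' processing notes name limma 3.4.5. The images were not used here. The table held 45101 probe sets. The 64 controls were left out and 45037 were tested. The array's annotation listed 34945 with 1 gene, 932 with several and 9160 with none, and as arrays have no read depth, their number limits the precision. One fit over all ages used limma 3.58.1 under R 4.3.3 (a mean per age, lmFit, contrasts.fit, eBayes), with Benjamini-Hochberg adjustment over all tested probe sets. A probe set was called at an adjusted p under 0.05 and over 1.3-fold, the thresholds of the study. Errors of differences are SE from this fit. A gene with several probe sets was read at the one with the highest mean over the 12 arrays. The annotation names no genome build, so coordinates come from the promoter table alone.

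The members and lists were chosen with earlier results of these data known. Genes were named by rule: every sirtuin probe set, each listed gene called in any comparison, a fixed set that included Nampt, Parp1 and Foxo3, marker genes, and the 2 genes most like each sirtuin. Cd38, a sirtuin competitor for NAD, had no probe set with a single gene in the annotation used and was not analysed here. The fit was tested on simulated data with independent noise at each probe set. These held neither the first component nor the 3′ to 5′ difference, so that test cannot speak to either. Alternatives were separate arrays, a replicate block, median centring, quantile normalization, the 3′ to 5′ covariate, a filter on dim probe sets, an intensity trend, fits of 2 ages only and each array left out. The first component as a covariate was added after the data were seen.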

Additional observations from a re-analysis of the deposited data

How the results depend on the processing

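The number of sirtuin probe sets called at 18 against 2 months was 1. It was 0 with the replicate block, 0 with the 3′ to 5′ covariate and 0 with an intensity trend (limma, with 2, 0 and 2 at an unadjusted p under 0.05). It was 3 with the first component as a covariate (Sirt1, Sirt2 and Sirt4), and 0 to 2 with 1 array left out. At 10 against 2 months the first component called 1, Sirt2, and with other settings, and at 18 against 10 months with every setting run, 0 were called. The count of related genes called at 18 against 2 months was 10, and it was 0 with the 3′ to 5′ covariate, 19 with the first component and 1 to 13 with 1 array left out. At 10 against 2 months it was 2, and it was 0 with the replicate block, the 3′ to 5′ covariate or the 2 ages alone (limma, with 21, 3 and 21 at an unadjusted p under 0.05), 1 with quantile normalization or an intensity trend, 16 with the first component and 0 to 2 with 1 array left out. Over all 45037 probe sets, 3359 were called at 18 against 2 months. This count was 4460 with 12 separate arrays, where young arrays 3 and 4 were not averaged. Sirt4 was then called (limma adjusted p = 0.0194) and Sirt1 was not (limma adjusted p = 0.0513). The count was 2548 with the block, 0 with the 3′ to 5′ covariate and 2896 with the trend. It was 8712 with the first component and 423 to 5326 with 1 array left out. At 10 against 2 months 613 were called, and 977 with 12 separate arrays. The count there was 3 with the block, 0 with the covariate or the 2 ages alone, 5390 with the first component and 1 to 1256 with 1 array left out.

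The labels give replicate numbers but do not say whether same-numbered arrays belong together, and the main fit took them as unpaired. Of 12 same-numbered pairs, 4 had deviations from the means of their ages that correlated over 0.1 (−0.611 to 0.431). These correlations cannot show whether the pools were handled together. With the replicate number as a block, Sirt4 at 18 against 2 months was 0.46 ± 0.12 (adjusted p = 0.0513).

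Of 240 sirtuin differences under other settings, 220 kept their sign and their side of the threshold, 3 lost a call, 3 gained one and 14 changed sign. All 14 were not called. At 10 against 2 months they were Sirt3 (−0.00195 with 12 separate arrays, with or without the block, −0.0799 with quantile normalization and −0.0562 with the 3′ to 5′ covariate), Sirt6 (0.0118 with centring and 0.0989 with the covariate), Sirt7 (0.00343 with centring) and the dimmest Sirt5 probe set, 1432105_at (0.0824 with the covariate, and 0.0814 at 18 against 2 months). At 18 against 10 months they were Sirt2 and Sirt7 with the first component (0.0115 and 0.0377), Sirt5 1428915_at with quantile normalization (−0.00559) and Sirt5 1432105_at with quantile normalization (0.00702) and the first component (0.0124). With 1 array left out, the differences that changed sign ran from −0.0203 to 0.0176 for Sirt3 at 10 against 2 months, from −0.0724 to 0.147 for Sirt5 1428916_s_at at 18 against 10 months, from −0.0323 to 0.0585 for Sirt5 1428915_at at 18 against 10 months, from −0.144 to 0.115 for Sirt5 1432105_at at 18 against 10 months, from −0.179 to 0.0594 for Sirt6 at 10 against 2 months, from −0.139 to 0.112 for Sirt7 at 10 against 2 months and from −0.241 to 0.00976 for Sirt7 at 18 against 10 months. Of the related genes at 18 against 2 months, Sarm1 changed sign with centring (0.0177) and the first component (0.0718) and ran from −0.17 to 0.0189 with 1 array left out, and with the 3′ to 5′ covariate Nnmt (0.233), Foxo1 (0.0604), Foxo3 (0.246), Ogdh (−0.203) and Hdac2 (−0.0444) did. The causes were not tested. Since the covariate does not overlap between young and later ages, its part and that of age could hardly be told apart. With 3 or 4 samples per age, differences within the intervals given could not be resolved, and the dimmest Sirt5 probe set had little signal over background.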
